A study of Mus musculus with 10 samples.

Results

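The genes described here encode the proteasome, its regulators and its assembly factors. They were taken by name: every gene whose symbol starts with Psma, Psmb, Psmc, Psmd, Psme, Psmf or Psmg followed by a number, on probe sets annotated to a single symbol. The rule found 48 genes on 85 probe sets, of 12394 genes with such a probe set on the array. For each gene the brightest of its probe sets, by the mean of the 10 arrays, stands for the gene. On that basis 47 of the 48 genes were bright enough to be tested, and Psma8, an alpha ring subunit known mainly from testis, was not. Of the 85 probe sets, 72 were tested. A single probe set annotated to both Psme2 and Psme2b was left out, so Psme2 has no value here. Psmc3ip and Psme3ip1 match the spelling but are no subunits: they are named for their binding to Psmc3 and to Psme3.

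The mice were C57/BLACK6 males aged 7 weeks and weighing about 20 g, and the RNA was that of whole kidneys. In the mice with ischemia-reperfusion injury the vessels of the left kidney were clamped for 45 min under ether, and the contralateral, unclamped kidney was removed 3 h after the clamp was opened. Those mice received 4-thiouridine (s4U) at 200 µM, together with tritiated cytidine, 1 h and 2 h after reperfusion. Normal mice were not operated on, received the same injections at 0 h and 1 h and had their kidneys removed at 2 h. Anaesthesia and the flank incision therefore went with the clamp, and no sham operation was described. In bulk tissue fewer cells of a type and less RNA per cell cannot be told apart.

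RNA was measured in 3 preparations, and the labels do not say whether different preparations came from the same kidneys. Newly transcribed RNA is the fraction that carries s4U, a nucleoside that enters RNA made after its injection, and it was measured on 1 contralateral and 1 normal array. Amplified total RNA and total RNA were measured on 2 contralateral and 2 normal arrays each, called biological replicates in the labels. All values below are log2 of the normalized signal, so a difference of 1 is 2-fold, and the distance between 2 different genes' signals has no meaning because probe sets differ in response.

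The proteasome degrades proteins marked with ubiquitin. Its core particle is a barrel of outer alpha rings and inner beta rings, and 3 of the beta subunits, Psmb5, Psmb6 and Psmb7, cut the protein chain. In cells exposed to interferon gamma, Psmb8, Psmb9 and Psmb10 take their places and form the immunoproteasome, which favours peptides for presentation on class I molecules. The regulatory particle binds, unfolds and feeds in the substrate. Its base holds the ATPases Psmc1 to Psmc6, and its lid holds Psmd14, which removes the ubiquitin chain. In the kidney, proximal tubule cells take up and break down filtered protein, mostly in lysosomes, and rely on the proteasome for proteins of the cytosol and nucleus. When proteasome activity falls short, the transcription factor Nfe2l1 (NRF1) is known to raise the transcription of subunit genes together, through antioxidant response elements in their promoters.

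For 40 of the 48 genes the RefSeq promoter table (GRCm38.p6) held at least 1 entry, 43 promoters in all, each with 250 bases before the start of the gene and 50 after it. The sequences below show 4 genes whose brightest probe set was lower in newly transcribed than in amplified total RNA in both kidneys. They are Psmb5, Psmd8, Psmc4 and Psma7. Psmd11, the gene whose brightest probe set was higher in both, is shown as well. All are written 5′ to 3′ on the strand of the gene. Capitals mark matches, on either strand, to TGACNNNGC (the core of the antioxidant response element), CCGGAAG (an ETS family motif) or CCAAT (the CCAAT box), and no 2 different motifs overlapped. The Psmb5 promoter lies at chr14:54617946-54618245 (minus strand), that of Psmd8 at chr7:29180624-29180923 (minus), that of Psmc4 at chr7:28050043-28050342 (minus), that of Psma7 at chr2:180042415-180042714 (minus) and that of Psmd11 at chr11:80428365-80428664 (plus).
Psmb5: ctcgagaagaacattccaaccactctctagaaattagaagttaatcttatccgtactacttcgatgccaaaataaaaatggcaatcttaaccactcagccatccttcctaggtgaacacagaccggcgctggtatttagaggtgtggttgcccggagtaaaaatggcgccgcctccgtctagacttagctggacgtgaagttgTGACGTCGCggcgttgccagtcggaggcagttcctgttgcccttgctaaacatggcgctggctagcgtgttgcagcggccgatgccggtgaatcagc
Psmd8: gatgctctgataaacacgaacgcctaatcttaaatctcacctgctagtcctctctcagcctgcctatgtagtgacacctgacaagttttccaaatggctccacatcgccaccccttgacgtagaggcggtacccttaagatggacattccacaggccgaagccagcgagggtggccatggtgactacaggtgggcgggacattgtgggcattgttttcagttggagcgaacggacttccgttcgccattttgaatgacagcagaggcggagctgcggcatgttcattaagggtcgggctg
Psmc4: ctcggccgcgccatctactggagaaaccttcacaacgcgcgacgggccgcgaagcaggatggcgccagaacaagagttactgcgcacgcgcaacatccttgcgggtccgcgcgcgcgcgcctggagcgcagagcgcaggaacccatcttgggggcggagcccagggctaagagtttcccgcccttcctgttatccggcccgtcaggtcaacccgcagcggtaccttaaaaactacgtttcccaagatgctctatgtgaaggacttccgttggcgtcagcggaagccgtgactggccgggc
Psma7: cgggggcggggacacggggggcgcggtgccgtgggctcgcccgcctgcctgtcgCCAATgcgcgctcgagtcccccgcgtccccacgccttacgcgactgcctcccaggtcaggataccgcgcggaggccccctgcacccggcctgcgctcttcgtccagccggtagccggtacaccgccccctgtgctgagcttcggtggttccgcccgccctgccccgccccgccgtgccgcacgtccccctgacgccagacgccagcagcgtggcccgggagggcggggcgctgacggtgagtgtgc
Psmd11: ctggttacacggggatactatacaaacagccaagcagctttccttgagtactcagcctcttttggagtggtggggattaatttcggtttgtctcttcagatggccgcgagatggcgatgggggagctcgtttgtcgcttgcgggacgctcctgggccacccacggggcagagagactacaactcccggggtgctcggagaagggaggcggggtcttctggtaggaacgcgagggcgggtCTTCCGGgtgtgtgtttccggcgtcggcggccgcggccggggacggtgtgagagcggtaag

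Psmb5 had 1 match to TGACNNNGC, Psma7 had 1 to CCAAT, and Psmd11 had 1 to CCGGAAG, on the opposite strand. In the windows of Psmd8 and Psmc4 none of the 3 motifs was found. Over the 43 promoters, CCGGAAG occurred in 17 (39.5%), against 8.86% of all 32851 promoters in the table. TGACNNNGC occurred in 6 (14%), against 12.4% of all, and CCAAT in 15 (34.9%), against 37.4%. The core of the interferon-stimulated response element (GAAA, any 2 bases, GAAA) occurred in 5 (11.6%) against 3.44%, and TTCNNNGAA, the gamma-activated sequence, in 3 (6.98%) against 8.3%. The genes with TGACNNNGC were Psmb5, Psmb6, Psmc6, Psmd9, Psmd12 and Psme4. A match describes the letters only.

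The arrays differed before normalization. The 2 newly transcribed arrays held the extremes of median deposited intensity, 18.6 for the contralateral and 70.3 for the normal kidney, with the other 8 arrays at 26.6 to 59.7. The 3′-to-5′ signal ratio of Gapdh, a measure of how far the signal favoured the 3′ ends of transcripts, was 68.9 on the contralateral and 12.7 on the normal newly transcribed array, 4.21 to 6.23 on the amplified arrays and 0.938 to 1.12 on the total RNA arrays. For Actb it was 24.8 on the contralateral and 12.7 on the normal newly transcribed array, 7.34 to 8.29 on the amplified and 1.30 to 1.85 on the total RNA arrays. These ratios move with preparation, and between the newly transcribed arrays with kidney, so each comparison across preparations and each difference between those arrays below carries them. Their part in the results was not tested. Over all 47 tested genes, the mean deviation from each gene's own mean was -0.55 on the contralateral and -0.49 on the normal newly transcribed array. On the other 8 arrays it ran from 0.08 to 0.19.

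**Figure D1:**
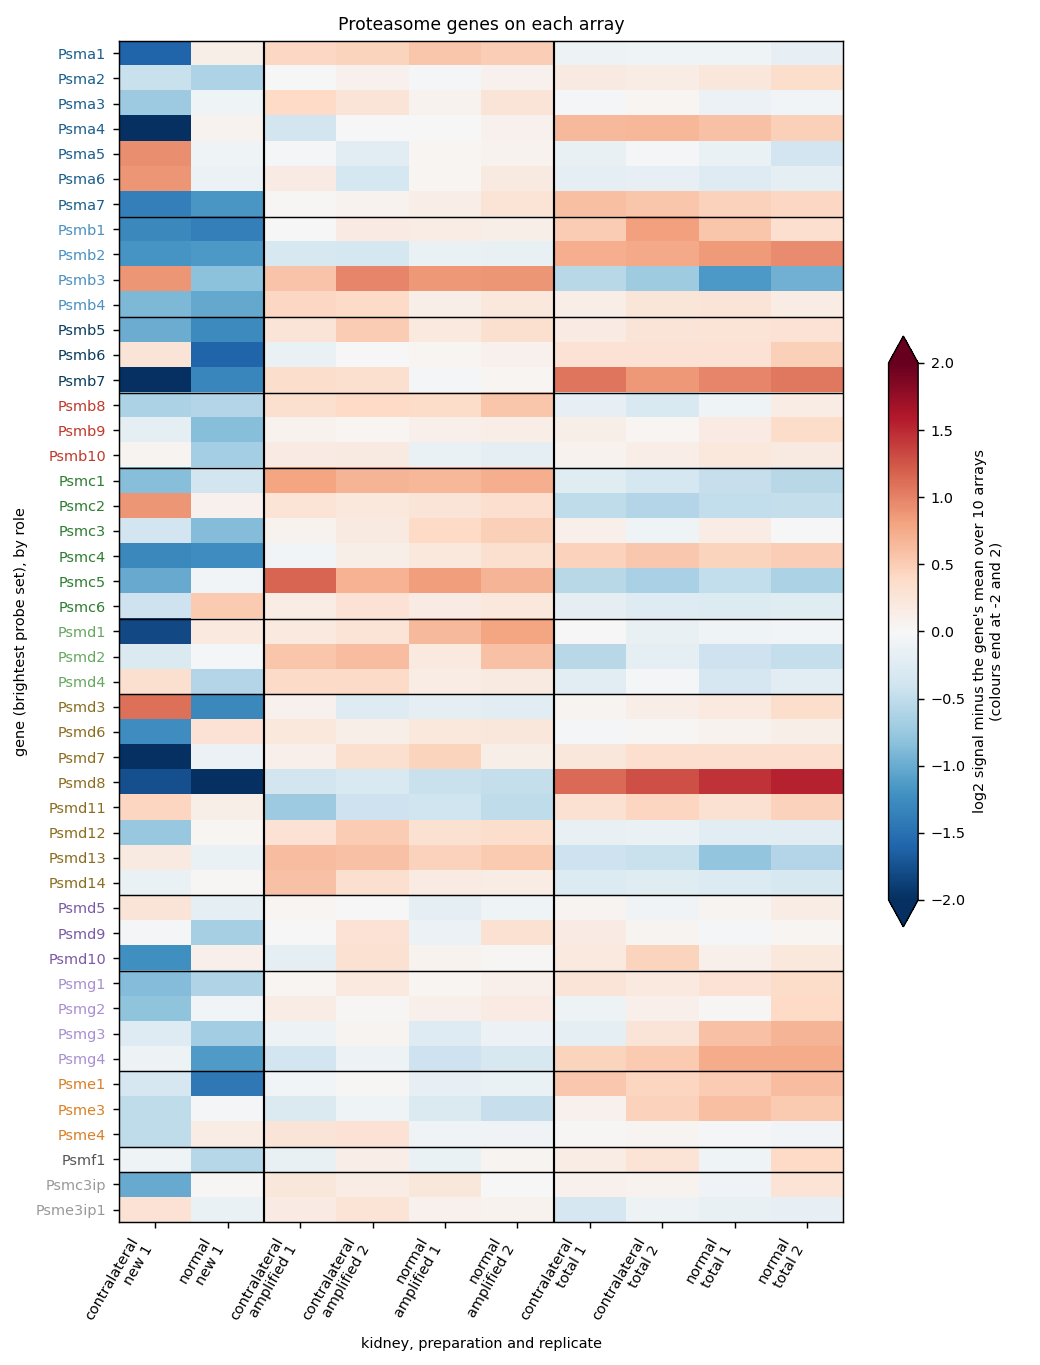
Normalized log2 signal of the 47 tested genes (rows, grouped by role from the alpha ring at the top to the inhibitor and partner proteins at the bottom) on the 10 arrays (columns), as the difference from the gene's mean over all arrays. The newly transcribed columns hold most of the low values, with a mean of -0.55 in the contralateral and -0.49 in the normal kidney, and the other 8 columns have means of 0.08 to 0.19.

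The first question was whether the proteasome genes of the contralateral kidney differed from those of normal kidneys in total RNA, the RNA the tissue held. No gene passed the test: 0 of 47 had an adjusted p below 0.05 in limma, where 1.8% of all 8300 genes did, and 4 of the 47 had an unadjusted p below 0.05. Their median difference was -0.03, and that of all genes tested was -0.03. The differences ran from -0.59 to 0.42, and the 95% interval of each of the 47 lay within 2-fold, as it did for 94% of all genes.

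The gene with the smallest p was Psmg3, a chaperone of core assembly. Its signal in total RNA was 6.45 and 6.90 in contralateral kidneys, against 7.22 and 7.32 in normal kidneys. Both contralateral values were lower, and the difference of -0.59 ± 0.18 (SE, 2 arrays each) did not pass (adjusted p = 0.134). Psmb3, a structural beta subunit, had 8.67 and 8.51 in contralateral against 8.07 and 8.26 in normal kidneys. Both contralateral values were higher, without passing (0.42 ± 0.14, adjusted p = 0.181). Psmd8, a lid subunit, differed by -0.28 ± 0.12 (adjusted p = 0.31) and Psmd13, another lid subunit, by 0.26 ± 0.11 (adjusted p = 0.325), and neither passed.

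The catalytic subunits lay close to normal in total RNA. Psmb5, the subunit with chymotrypsin-like activity, had 10.21 and 10.31 in contralateral and 10.33 and 10.34 in normal kidneys, a difference of -0.07 with a 95% interval from -0.31 to 0.17. Psmb6, with caspase-like activity, had 9.72 and 9.73 in contralateral and 9.73 and 9.92 in normal kidneys, a difference of -0.10 (interval -0.33 to 0.14). Psmb7, with trypsin-like activity, had 11.38 and 11.17 in contralateral and 11.28 and 11.37 in normal kidneys, a difference of -0.05 (interval -0.27 to 0.17). None of the 3 passed, and each interval spans 0 and ends well inside 2-fold in either direction.

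The immunoproteasome subunits in total RNA were also measured within a narrow range. Psmb8, which replaces Psmb5, had 6.38 and 6.25 in contralateral kidneys, against 6.47 and 6.70 in normal kidneys, a difference of -0.26 (interval -0.61 to 0.09, adjusted p = 0.478). Psmb9, which replaces Psmb6, had 6.03 and 5.94 in contralateral against 6.08 and 6.28 in normal kidneys (-0.19, interval -0.57 to 0.19, adjusted p = 0.67). Psmb10, which replaces Psmb7, had 6.72 and 6.79 in contralateral against 6.87 and 6.83 in normal kidneys (-0.09, interval -0.40 to 0.22, adjusted p = 0.821). For Psmb8, Psmb9 and Psmb10 each interval spans 0, and no difference passed.

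The same comparison in amplified total RNA called 2 of 47 genes (4.26%), where 9% of all genes passed: 1 rose and 1 fell, against 4.82% and 4.18% of all genes. A further 5 had an unadjusted p below 0.05. The median difference of the 47 was 0.04, equal to that of all genes to 2 decimals, and all 47 intervals lay within 2-fold. Psme4, the activator PA200 known for binding the core particle in the nucleus, had 10.10 and 10.12 in contralateral kidneys, against 9.76 and 9.76 in normal kidneys. It rose by 0.35 ± 0.09 (adjusted p = 0.0328). Psmd1, a scaffold protein of the base, had 9.33 and 9.42 in contralateral against 9.79 and 9.93 in normal kidneys. It fell by 0.48 ± 0.11 (adjusted p = 0.017). The values of the groups do not overlap for either gene.

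The call of Psme4 was lost in 8 of 19 alternative fits, where its adjusted p reached 0.174, and that of Psmd1 in 4 of 19, reaching 0.175. Without either of the normal amplified arrays 0 of 47 genes passed, and without either of the normal total RNA arrays 1 did, Psmd1. A second Psme4 probe set, 1452211_at, gave 9.63 and 9.45 in contralateral against 9.09 and 9.05 in normal kidneys, and it passed as well (0.47 ± 0.11, adjusted p = 0.017). The third, 1426824_at, had 7.57 and 7.27 in contralateral against 7.22 and 7.11 in normal kidneys and did not (0.25 ± 0.15, adjusted p = 0.337). In total RNA Psme4 had 9.85 and 9.89 in contralateral against 9.79 and 9.78 in normal kidneys (0.09 ± 0.09, adjusted p = 0.716). Counted by probe set in amplified RNA, 5 of 72 passed in limma (6.94%, against 10.3% of all). They included dimmer probe sets of Psmd11 (1429370_a_at, 0.72 ± 0.19, adjusted p = 0.0345) and Psmb3 (1417052_at, -0.51 ± 0.14, adjusted p = 0.0371). The brightest probe sets gave -0.11 for Psmd11 and -0.10 for Psmb3 without passing. For Psmd11, 1440253_at (-0.18) and 1456059_at (-0.27) did not pass either.

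Of the genes that did not pass in amplified RNA, Psmb7 was the nearest, with 10.66 and 10.63 in contralateral against 10.27 and 10.35 in normal kidneys (0.34 ± 0.10, adjusted p = 0.0538). Psmc3, an ATPase of the base, had 9.43 and 9.53 in contralateral against 9.75 and 9.83 in normal kidneys (-0.31 ± 0.11, adjusted p = 0.11). Psmb10 had 6.82 and 6.84 in contralateral against 6.52 and 6.46 in normal kidneys (0.34 ± 0.14, adjusted p = 0.159), with no overlap. Psmb8, with 6.87 and 6.95 in contralateral against 6.92 and 7.10 in normal kidneys, overlapped between kidneys and did not pass (-0.10, interval -0.45 to 0.25). Psmb9, with 5.99 and 5.95 in contralateral against 6.01 and 6.05 in normal kidneys, did not overlap and did not pass (-0.06, interval -0.44 to 0.32).

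The regulators and assembly factors other than Psme4 did not pass in either preparation. Psme1, a subunit of the interferon-inducible activator ring, differed by 0.14 (interval -0.12 to 0.39) in amplified and by -0.08 (interval -0.33 to 0.18) in total RNA. Psme3, which forms a related nuclear ring, differed by 0.19 (-0.17 to 0.54) in amplified and by -0.29 (-0.65 to 0.06) in total RNA. Psmf1, an inhibitor of the core particle, differed by 0.03 (-0.38 to 0.44) in amplified and by 0.05 (-0.36 to 0.46) in total RNA. Among the chaperones of core assembly, Psmg1 differed by 0.04 in amplified and by -0.10 in total RNA, and Psmg2 by -0.05 in amplified and by -0.20 in total RNA. Psmg3 differed by 0.17 in amplified RNA beside the -0.59 in total RNA, and Psmg4 by 0.13 in amplified and by -0.26 in total RNA.

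Over all 3 preparations together, in a model with kidney and preparation, 0 of 47 genes passed in limma, where 0.602% of all genes did, and 2 had an unadjusted p below 0.05. The smallest p belonged to Psmd4, the ubiquitin receptor of the base (0.32 ± 0.14, adjusted p = 0.321), followed by Psmd1 (-0.60 ± 0.25, adjusted p = 0.323), Psmb3 (0.47 ± 0.24, adjusted p = 0.385) and Psmd13 (0.21 ± 0.11, adjusted p = 0.392). In this model 43 of 47 intervals lay within 2-fold. The difference of the contralateral effect between amplified and total RNA was tested as an interaction, and 0 of 47 genes passed in limma against 2.72% of all genes, with 5 at an unadjusted p below 0.05. Its 4 smallest p belonged to Psmd1 (-0.48 ± 0.15, adjusted p = 0.126), Psmg3 (0.76 ± 0.25, adjusted p = 0.129), Psmb7 (0.39 ± 0.14, adjusted p = 0.175) and Psmb3 (-0.53 ± 0.20, adjusted p = 0.19), and none passed.

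**Figure D2:**
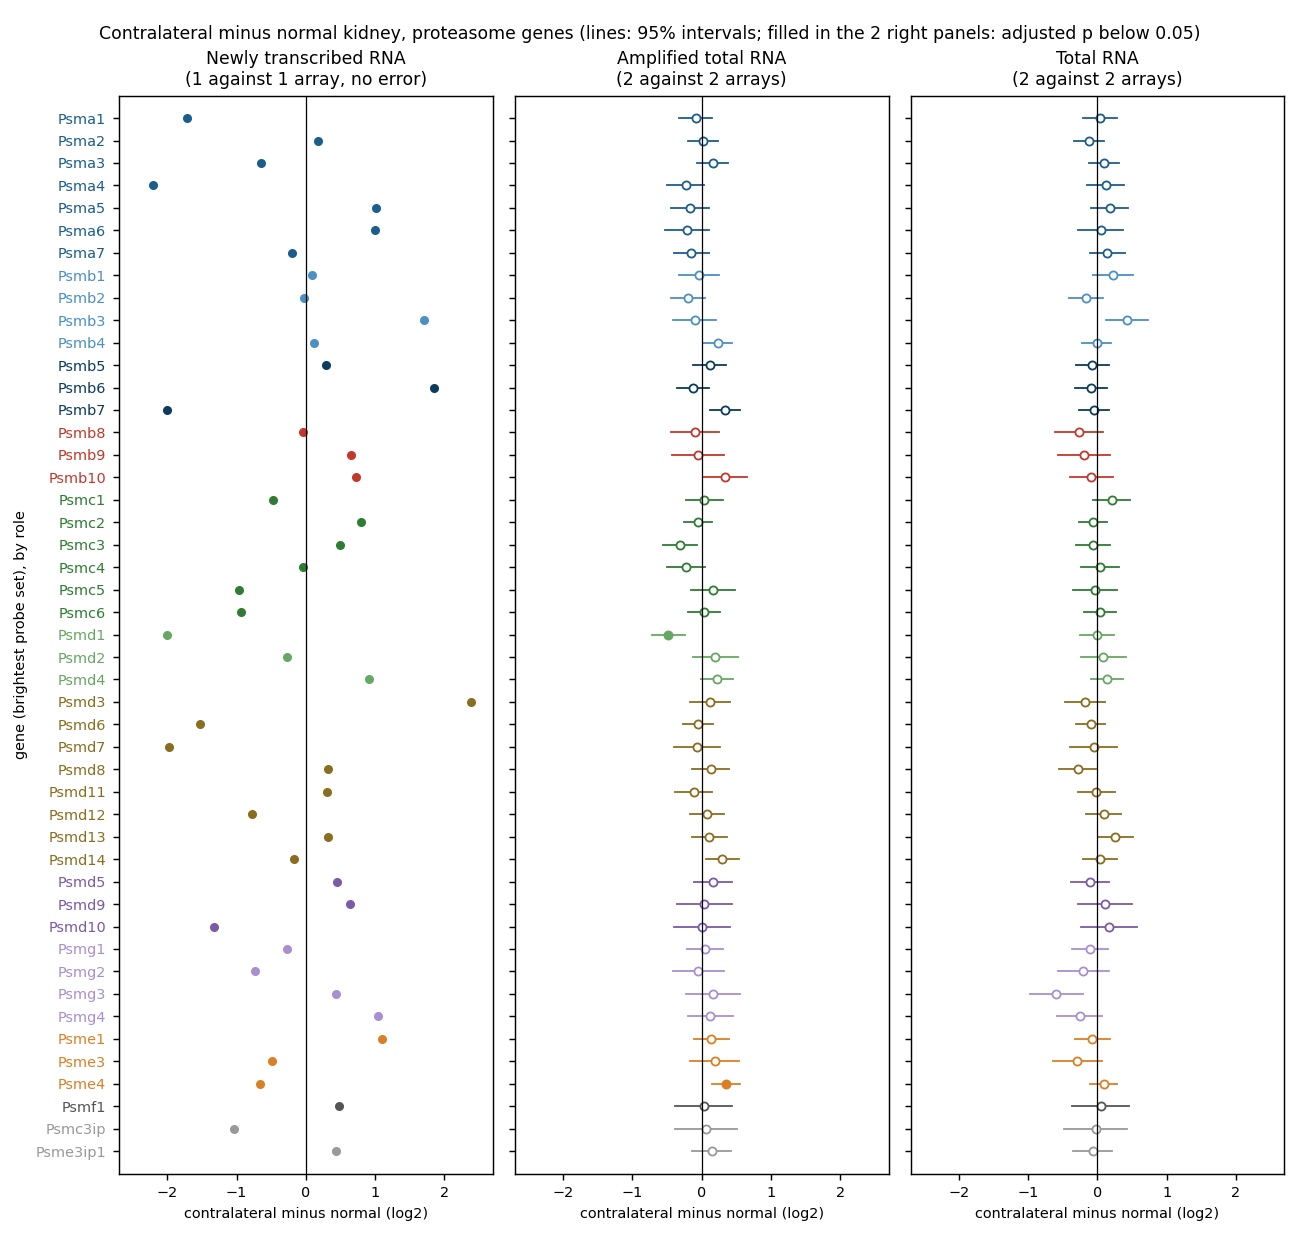
Difference between contralateral and normal kidney (x axis, log2) for each gene (y axis, grouped and coloured by role) in newly transcribed RNA (left, 1 array against 1, no error), amplified total RNA (middle) and total RNA (right). Lines are 95% intervals and filled points in the middle and right panels passed at an adjusted p below 0.05: Psme4 at 0.35 and Psmd1 at -0.48 in amplified RNA, and none in total RNA. The left panel spreads from -2.21 to 2.39.

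In newly transcribed RNA the contralateral and the normal kidney were each measured on 1 array, so there was no test and no error, and a gene is counted where the signals differed by at least 2-fold. By that count 14 of 47 genes (29.8%) differed, where 30.3% of all genes did: 6 were higher in the contralateral array, against 14.4% of all genes, and 8 were lower, against 15.9%. The median difference of the 47 was 0.08, and that of all genes was 0.06.

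Subunits of the same particle had differences of both signs between these 2 arrays. In the lid, Psmd3 had 10.03 on the contralateral and 7.65 on the normal array, a difference of 2.39. Psmd7 had 5.18 on the contralateral and 7.15 on the normal array (-1.97), and Psmd6, a further lid subunit, had 8.37 on the contralateral and 9.90 on the normal array (-1.53). Psmd3 was thus higher, and Psmd6 and Psmd7 lower, in the contralateral kidney.

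The catalytic subunits also parted. Psmb6 had 9.69 on the contralateral and 7.84 on the normal array (1.86). Psmb7 had 7.00 on the contralateral and 9.01 on the normal array (-2.01). Psmb5 had 9.05 on the contralateral and 8.77 on the normal array (0.28), so that of the 3 catalytic subunits 1 was higher, 1 lower and 1 under 2-fold. The alpha ring was split in the same way, with Psma4 at 7.76 on the contralateral and 9.98 on the normal array (-2.21). Psma1 had 6.84 on the contralateral and 8.56 on the normal array (-1.72), and Psma5 had 10.06 on the contralateral and 9.05 on the normal array (1.01). No role had all its tested genes past 2-fold in a single direction.

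Outside these groups, Psmb3 had 10.11 on the contralateral and 8.41 on the normal array (1.70). The activator subunit Psme1 had 7.97 on the contralateral and 6.88 on the normal array (1.10), and the chaperone Psmg4 had 6.76 on the contralateral and 5.72 on the normal array (1.04). All 3 values were higher on the contralateral array. For Psmb3 the mean over its probe sets differed by 0.05. With an offset of 50 Psme1 differed by 0.89 and Psmg4 by 0.69, and with median scaling Psme1 differed by 0.94, all under 2-fold. Psmd1, which had fallen in contralateral amplified RNA, had 7.34 on the contralateral and 9.34 on the normal array. Psme4, which had risen in contralateral amplified RNA, went the other way here. Its brightest probe set had 9.32 on the contralateral and 9.98 on the normal array (-0.66, under 2-fold). The dimmer Psme4 probe sets 1452211_at (-1.64) and 1426824_at (-1.58) were also lower on the contralateral array.

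The immunoproteasome subunits stayed under 2-fold. Psmb8 had 5.92 on the contralateral and 5.96 on the normal array (-0.04). Psmb9 had 5.72 on the contralateral and 5.06 on the normal array (0.66), and Psmb10 had 6.71 on the contralateral and 5.98 on the normal array (0.73). Other genes of interferon-inducible antigen processing, counted as a list of 9, had 2 that were at least 2-fold higher and 0 lower, against 14.4% and 15.9% of all genes. Tap1, part of the transporter that carries proteasome products into the endoplasmic reticulum, had 8.42 on the contralateral and 5.92 on the normal array (2.50). Irf1, a transcription factor of interferon responses, had 9.13 on the contralateral and 7.42 on the normal array (1.71). Neither passed in total RNA, where Tap1 differed by 0.00 (adjusted p = 0.997) and Irf1 by -0.01 (adjusted p = 0.979), and 0 of the 9 genes passed there. In amplified RNA 0 of the 9 rose and 1 fell, Tapbp (-0.71), where 4.82% of all genes rose and 4.18% fell.

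Markers of leukocytes, which express the immunoproteasome without induction, were counted beside these values. Of 16 leukocyte genes 11 were tested, and Cd3g, Cd79b, Coro1a, S100a8 and S100a9 were too dim. Of the 11, 4 were at least 2-fold higher on the contralateral newly transcribed array, 0 were at least 2-fold lower, and the median was 0.66. Of all genes 14.4% were at least 2-fold higher and 15.9% lower between these arrays. The linear signal summed over all 16 genes, the dim ones included, was 3078 on that array and 1612 on the normal newly transcribed array. It was 2652 and 2174 in contralateral against 1892 and 1950 in normal amplified RNA, and 2455 and 2176 in contralateral against 2110 and 2353 in normal total RNA. The sum thus overlapped between kidneys in total RNA and did not in amplified RNA. Gene by gene, 0 of the 11 tested passed in total RNA. In amplified RNA 1 rose, Cd74, and 0 fell, where 4.82% of all genes rose and 4.18% fell. The median of the 11 there was 0.36, and Fcer1g was the lowest at -0.59. Fat tissue genes (3 tested, median 2.04) were likewise higher on the contralateral newly transcribed array. Collecting duct genes had a median of 0.74, with 1 of 5 at least 2-fold higher and 0 lower. Endothelial genes had a median of 0.02, with 1 of 7 higher and 2 lower. The medians were below 0 for the proximal tubule (-0.32, 1 of 8 lower), the thick limb and distal tubule (-0.58) and podocytes (-0.29). The part of these cell types in the values of Psmb9, Psmb10 and Psme1 was not tested.

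**Figure D3:**
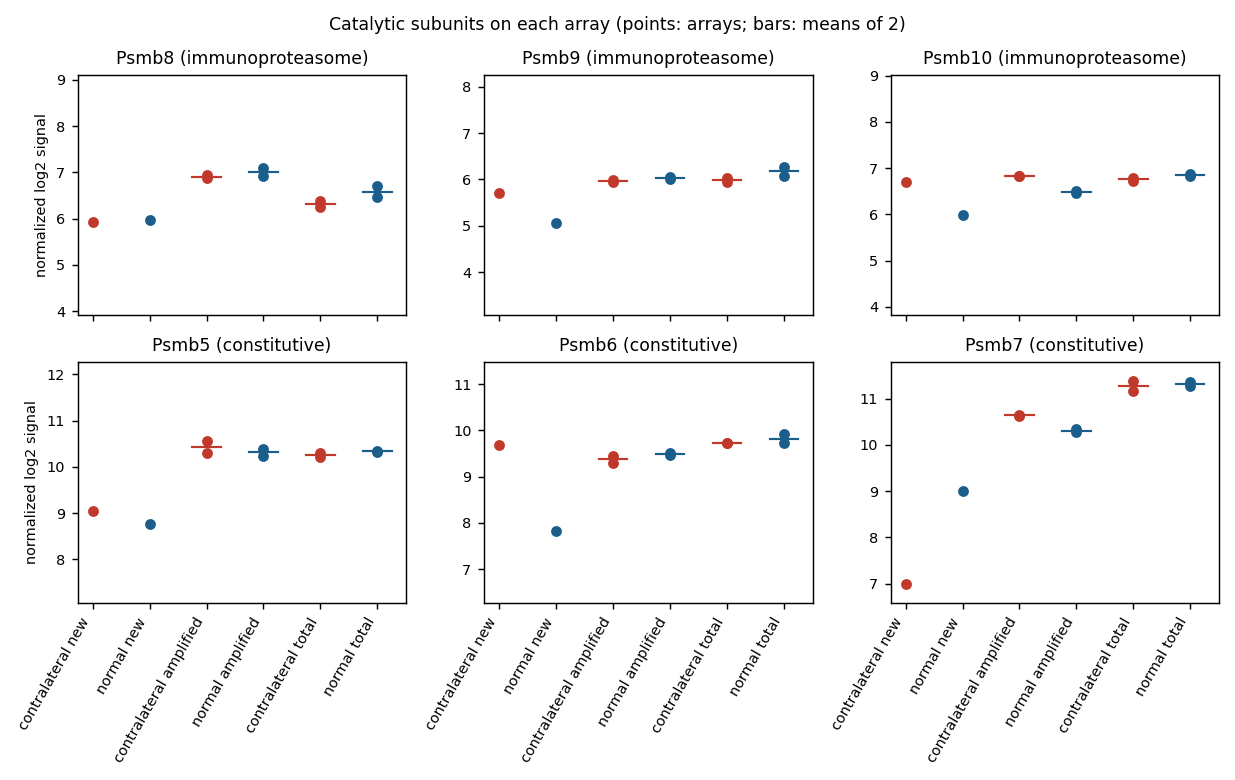
Normalized log2 signal (y axis, each panel spanning the same number of log2 units) of the 3 immunoproteasome subunits (top) and the constitutive subunits they replace (bottom) by kidney and preparation (x axis). Points are arrays, red for contralateral and blue for normal, and bars are means of 2 arrays. The largest gap between kidneys was in newly transcribed RNA, for Psmb6 (1.86) and Psmb7 (-2.01), while the amplified and total RNA points of both kidneys lie close together.

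The next question was how the proteasome genes stood in newly transcribed RNA relative to amplified total RNA. Most proteasome genes had a lower signal in the newly transcribed fraction. Of 47 genes 23 passed (48.9%), where 30% of all genes did: 22 were lower (46.8% against 16.9% of all genes) and 1 was higher (2.13% against 13.1%). The median difference was -0.65, against 0.01 over all genes, and 40 of 47 lay below 0 (85.1% against 49.3%). These counts come from a model with both kidneys, and each preparation difference rests on 2 newly transcribed arrays that differed as described above.

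The kidneys taken separately, with no test, gave the same side for most of these genes. In the contralateral kidney 18 of 47 were at least 2-fold lower than the mean of the amplified arrays and 2 were higher (38.3% and 4.26%, against 14.4% and 11.1% of all genes), with a median of -0.79. In the normal kidney 15 were lower and 0 higher (31.9%, against 9.36% lower and 9.33% higher of all genes), with a median of -0.53. In both kidneys 31 genes lay below 0, where 30.7% of all genes did, and 8 were at least 2-fold lower in both, where 3.92% of all genes were: Psma7, Psmb1, Psmb4, Psmb5, Psmb7, Psmc1, Psmc4 and Psmd8. Only Psmd11 of the 47 lay above 0 in both.

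In the core particle, 9 of 14 constitutive alpha and beta subunits fell, with a median of -0.95. Psmb7 had 7.00 in the contralateral and 9.01 in the normal newly transcribed array, against 10.66 and 10.63 in contralateral and 10.27 and 10.35 in normal amplified RNA. It fell by 2.47 ± 0.40 (adjusted p = 0.00168), and both newly transcribed values were lower than all amplified ones. The kidneys differed in size, at -3.64 in the contralateral and -1.30 in the normal kidney. Psmb5 had 9.05 and 8.77 in newly transcribed RNA of contralateral and normal kidney, against 10.30 and 10.55 in contralateral and 10.24 and 10.38 in normal amplified RNA. It fell by 1.46 ± 0.15 (adjusted p = 0.000274), with differences of -1.37 in the contralateral and -1.54 in the normal kidney taken singly. Psmb6, the other constitutive catalytic subunit, did not pass (-0.67, interval -1.48 to 0.14, adjusted p = 0.197): its difference from the amplified mean was 0.32 in the contralateral and -1.66 in the normal kidney.

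Psmb1, a structural beta subunit, had 7.74 and 7.66 in newly transcribed RNA of contralateral and normal kidney, against 9.03 and 9.19 in contralateral and 9.17 and 9.13 in normal amplified RNA (-1.43 ± 0.17, adjusted p = 0.000405). Psma7, of the alpha ring, had 6.92 and 7.13 in newly transcribed RNA of contralateral and normal kidney, against 8.32 and 8.37 in contralateral and 8.42 and 8.57 in normal amplified RNA (-1.39 ± 0.16, adjusted p = 0.000404). For both genes the newly transcribed values of the kidneys lay within 0.21 of each other and below every amplified value. Among alpha ring genes 4 of 7 fell (Psma1, Psma2, Psma3 and Psma7), and among structural beta subunits 3 of 4 (Psmb1, Psmb2 and Psmb4).

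In the regulatory particle 10 of 17 genes fell and 1 rose, with a median of -0.66. Of the 6 ATPases of the base 4 fell, Psmc1, Psmc3, Psmc4 and Psmc5. Psmc4 had 6.80 and 6.85 in newly transcribed RNA of contralateral and normal kidney, against 8.03 and 8.21 in contralateral and 8.30 and 8.40 in normal amplified RNA (-1.42 ± 0.16, adjusted p = 0.000364). In the lid, Psmd8 had 6.18 and 5.86 in newly transcribed RNA of contralateral and normal kidney, against 7.58 and 7.64 in contralateral and 7.49 and 7.46 in normal amplified RNA (-1.52 ± 0.18, adjusted p = 0.000455). On their brightest probe sets, every newly transcribed value of Psmc4 and Psmd8 lay below every amplified one. The dimmer Psmc4 probe set, 1416290_a_at, did not pass in limma (0.21 ± 0.32, adjusted p = 0.66). In newly transcribed RNA it had 8.02 in the contralateral and 6.39 in the normal kidney. In amplified RNA it had 7.03 and 6.98 in contralateral and 6.88 and 7.11 in normal kidneys.

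Psmd11, a lid subunit known for its link to proteasome assembly, was the exception. It had 10.31 and 9.997 in newly transcribed RNA of contralateral and normal kidney, against 9.15 and 9.46 in contralateral and 9.48 and 9.36 in normal amplified RNA. It rose by 0.79 ± 0.16 (adjusted p = 0.00566), and both newly transcribed values were above all amplified ones. Its representative probe set, 1437080_s_at, carries the suffix for probes shared between transcripts or genes. Of its 3 other tested probe sets, 1440253_at (1.52 ± 0.26, adjusted p = 0.00226) and 1456059_at (0.76 ± 0.17, adjusted p = 0.00937) rose as well, and 1429370_a_at did not pass (-0.18 ± 0.42, adjusted p = 0.779). With the mean of all its probe sets the gene did not pass (adjusted p = 0.0628).

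Of the immunoproteasome subunits, Psmb8 fell: it had 5.92 and 5.96 in newly transcribed RNA of contralateral and normal kidney, against 6.87 and 6.95 in contralateral and 6.92 and 7.10 in normal amplified RNA (-1.02 ± 0.16, adjusted p = 0.00166). Psmb9 (-0.61, interval -1.07 to -0.15, adjusted p = 0.0509) and Psmb10 (-0.31, interval -0.75 to 0.13, adjusted p = 0.263) did not pass. Among the regulators, Psme1 fell, with 7.97 and 6.88 in newly transcribed RNA of contralateral and normal kidney, against 8.26 and 8.34 in contralateral and 8.15 and 8.18 in normal amplified RNA (-0.81 ± 0.24, adjusted p = 0.0297). That call was lost in 6 of 17 alternative fits, where its adjusted p reached 0.153. Psme3 (0.02, interval -0.44 to 0.48), Psme4 (-0.28, interval -0.73 to 0.17) and Psmf1 (-0.30, interval -0.75 to 0.14) did not pass on their brightest probe sets. Dimmer Psme4 probe sets fell in limma, 1452211_at (-1.10 ± 0.37, adjusted p = 0.0474) and 1426824_at (-1.28 ± 0.33, adjusted p = 0.0179). The dimmer Psmf1 probe set 1424371_at rose (1.04 ± 0.21, adjusted p = 0.00525), and 1424370_s_at (0.28) and 1424369_at (0.06) did not pass.

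Among the assembly factors, Psmg1 fell, with 7.29 and 7.57 in newly transcribed RNA of contralateral and normal kidney, against 8.19 and 8.35 in contralateral and 8.21 and 8.26 in normal amplified RNA (-0.82 ± 0.16, adjusted p = 0.00399). Psmg2 (-0.54, interval -0.99 to -0.09, adjusted p = 0.0699), Psmg3 (-0.37, interval -0.94 to 0.19, adjusted p = 0.295) and Psmg4 (-0.31, interval -0.88 to 0.25, adjusted p = 0.385) did not pass. A dimmer Psmg2 probe set, 1425373_a_at, fell in limma (-1.22 ± 0.36, adjusted p = 0.0286). None of the 3 chaperones of base assembly, Psmd5, Psmd9 and Psmd10, passed, nor did the partner proteins Psmc3ip and Psme3ip1. The roles thus ranged from 3 of 4 structural beta subunits that fell to 0 of 3 base chaperones, and the difference between roles was not tested.

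**Figure D4:**
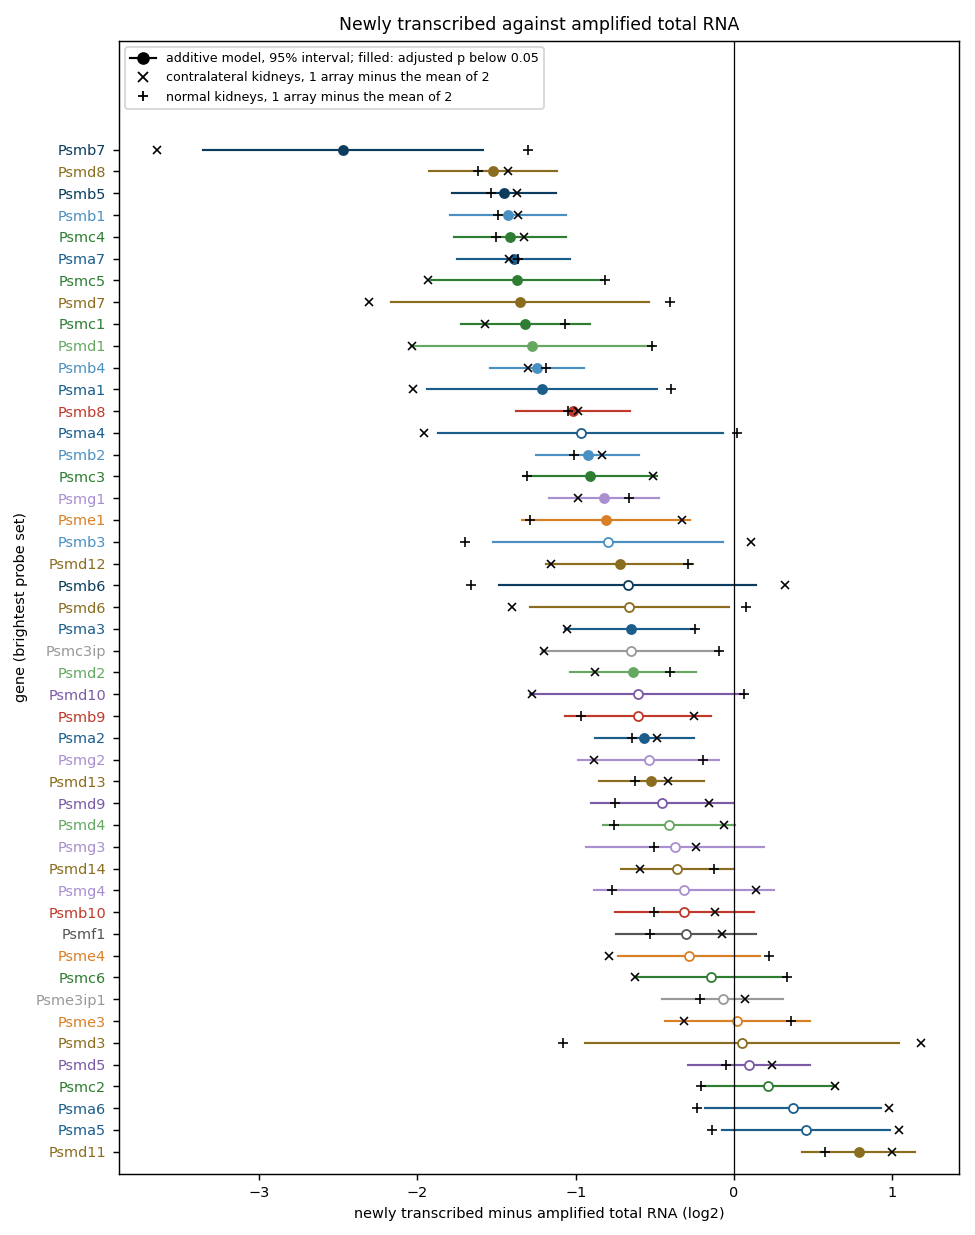
Difference between newly transcribed and amplified total RNA (x axis, log2) for the 47 tested genes (y axis, sorted, coloured by role). Circles are the estimate over both kidneys with its 95% interval, filled where the adjusted p was below 0.05. Crosses (contralateral) and plus signs (normal) are the single newly transcribed array minus the mean of 2 amplified arrays. Filled circles lie to the left of 0 for 22 genes, from Psmb7 at -2.47, and to the right for Psmd11 at 0.79, and the crosses and plus signs of Psmb7, Psmb6 and Psmd3 lie far apart.

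Genes with a high mean signal fell more often in this comparison. The genes were split at the proteasome genes' median of the mean signal, 8.81, a split chosen after seeing the data. Among the 1508 genes at or above it 30.9% fell, and 11 of 24 proteasome genes did (45.8%). Among the 6792 below it 13.7% fell, and 11 of 23 proteasome genes did (47.8%). Of the promoter motifs, CCGGAAG occurred in 5 of 17 genes that fell and had a promoter entry, and in 11 of the 23 others, and TGACNNNGC in 2 of the 17 and in 4 of the 23. CCAAT occurred in 5 of the 17 and in 10 of the 23, the interferon-stimulated response element core in 1 of the 17 and in 4 of the 23, and TTCNNNGAA in 3 of the 17 and in 0 of the 23. These differences were not tested.

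Other genes that work with the proteasome, outside the naming rule, were counted in the same comparison, where 16.9% of all genes fell and 13.1% rose. Of 12 proteasome-associated genes 2 fell and 2 rose, close to those shares. Uchl5, a deubiquitinase of the regulatory particle, had 5.94 and 7.44 in newly transcribed RNA of contralateral and normal kidney, against 8.10 and 8.35 in contralateral and 8.40 and 8.31 in normal amplified RNA (-1.60 ± 0.30, adjusted p = 0.00364). Pomp, a chaperone that matures the core particle, fell by 1.05 ± 0.18 (adjusted p = 0.00202). Usp14, the other deubiquitinase that binds the particle, rose by 0.80 ± 0.25 (adjusted p = 0.0397), and Txnl1, a thioredoxin-like protein bound to the particle, by 0.70 ± 0.17 (adjusted p = 0.0143). The median of the 12 was -0.19.

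A list of ubiquitin handling had 10 measured genes, Vcp, a segregase that extracts ubiquitinated protein, its cofactors Faf1, Nploc4, Nsfl1c, Ubxn1 and Ufd1, and the shuttle factors Rad23b, Ubqln1, Ubqln2 and Ubqln4. Of these 1 rose and 3 fell (median -0.18), where 13.1% of all genes rose and 16.9% fell. Of 6 genes of NRF1 and its activation 1 rose, Nfe2l1 itself (0.91 ± 0.28, adjusted p = 0.0342), and 1 fell, Sel1l, an adaptor of endoplasmic reticulum degradation (-0.51 ± 0.16, adjusted p = 0.0429). Of the 9 interferon-inducible genes 2 rose and 4 fell (median -0.62), read against the same shares. Among markers of kidney cell types, 5 of 8 fell for the proximal tubule (median -0.61), 5 of 7 for endothelium (median -1.43), 3 of 7 for the thick limb and distal tubule (median -0.41), 2 of 3 for podocytes (median -0.53) and 2 of 5 for the collecting duct (median 0.00), and none rose. Of 11 leukocyte genes 1 rose and 1 fell (median -0.12), and of 3 fat tissue genes 0 passed (median 0.01). The part of these cell types in the proteasome values was not tested.

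Between kidneys, the NRF1 list had 0 of 6 genes that passed in total RNA, with 1.8% of all genes called there. In amplified RNA, where 4.82% of all genes rose, 2 of 6 did, Sqstm1, an autophagy receptor for ubiquitinated protein, and Nfe2l2, a relative of NRF1. Sqstm1 had 10.20 and 10.31 in contralateral against 9.52 and 9.67 in normal kidneys (0.66 ± 0.10, adjusted p = 0.00181). Nfe2l2 had 8.97 and 8.88 in contralateral against 8.39 and 8.25 in normal kidneys (0.61 ± 0.12, adjusted p = 0.00888), with no overlap for either gene. Nfe2l1 did not pass (-0.13 ± 0.15, adjusted p = 0.657). The proteasome-associated and the ubiquitin handling list had 0 genes that passed in limma in either preparation.

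Amplified total RNA was also compared with total RNA. The labels' protocol describes linear amplification for every sample, so the handling that set these preparations apart is known from their titles alone. Of 47 genes 18 passed (38.3%), where 37.8% of all genes did: 10 were higher in amplified RNA (21.3%, against 22.9%) and 8 were lower (17%, against 14.9%). The median was 0.06, and that of all genes was 0.10. With each array scaled to a common median in place of quantile normalization, the median of all genes moved to 0.20 and the split to 19 higher and 4 lower, so that directions here are relative to the scaling. Leaving out either newly transcribed array gave 30 calls, 16 higher and 14 lower.

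Of the 10 higher calls 8 were genes of the regulatory particle, among them the ATPases Psmc1, Psmc2 and Psmc5, and 2 of its 17 genes were lower. Psmc5 had 10.57 and 10.10 in contralateral and 10.26 and 10.10 in normal amplified RNA, against 8.86 and 8.76 in contralateral and 8.92 and 8.78 in normal total RNA (1.43 ± 0.20, adjusted p = 0.000504). Psmc1 was higher by 1.12 ± 0.15 (adjusted p = 0.000415), Psmc2 by 0.79 ± 0.16 (adjusted p = 0.0034), Psmd13 by 1.11 ± 0.12 (adjusted p = 0.000154) and Psmd2, a scaffold of the base, by 0.89 ± 0.15 (adjusted p = 0.00122). Psmd8 went the other way, with 7.58 and 7.64 in contralateral and 7.49 and 7.46 in normal amplified RNA, against 9.08 and 9.23 in contralateral and 9.39 and 9.48 in normal total RNA (-1.75 ± 0.15, adjusted p = 5.11e-05). Psmd11 was lower too (-0.89 ± 0.13, adjusted p = 0.000662). The groups of arrays do not overlap for Psmc5 or Psmd8.

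In the core particle 1 constitutive subunit was higher and 3 were lower of 14. Psmb3 had 9.80 and 10.20 in contralateral and 10.09 and 10.11 in normal amplified RNA, against 8.67 and 8.51 in contralateral and 8.07 and 8.26 in normal total RNA (1.67 ± 0.27, adjusted p = 0.000997). The dimmer Psmb3 probe set, 1417052_at, had the opposite sign and did not pass in limma (-0.35 ± 0.27, adjusted p = 0.34). Psmb2 was lower, with -1.06 ± 0.12 (adjusted p = 0.000168). Psmb8 was higher by 0.51 ± 0.13 (adjusted p = 0.0129), while Psmb5 (0.07 ± 0.12), Psmb6 (-0.34 ± 0.30), Psmb7 (-0.82 ± 0.32), Psmb9 (-0.08 ± 0.17) and Psmb10 (-0.14 ± 0.16) did not pass. Psmg4 (-0.91 ± 0.21, adjusted p = 0.00705), Psme3 (-0.70 ± 0.17, adjusted p = 0.00865) and Psme1 (-0.61 ± 0.19, adjusted p = 0.0323) were lower. The call of Psme1 was lost in 9 of 18 alternative fits and that of Psme3 in 2.

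Several genes were measured by more than 1 probe set, and these did not always go together. Of 18 genes with several tested probe sets, 11 had differences of both signs between newly transcribed and amplified RNA, and 9 did between the newly transcribed arrays of contralateral and normal kidney. In no gene did 2 probe sets pass in opposite directions between newly transcribed and amplified RNA, and in 3 genes, Psmd4, Psme3 and Psmf1, they did between amplified and total RNA. Psmb3 is the clearest case between the newly transcribed arrays: 1460198_a_at, the brighter probe set, had 10.11 on the contralateral and 8.41 on the normal array (1.70), and 1417052_at had 5.08 on the contralateral and 6.68 on the normal array (-1.60). The probe sets of Psmd6 gave -1.53 for 1423697_at and 0.41 for 1423696_a_at.

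Psme3 shows the same between preparations. Its brighter probe set, 1418078_at, did not pass between newly transcribed and amplified RNA (0.02 ± 0.21), and 1418079_at fell by 1.00 ± 0.16 (adjusted p = 0.00177). Psmb1 fell on 1448166_a_at alone, and its 2 dimmer probe sets gave -0.01 and 0.43 without passing. With the mean of all probe sets of a gene, Psmb1 did not pass (adjusted p = 0.174), and Psma1, Psma5, Psmb3, Psmd6 and Psmd7 were under 2-fold between the newly transcribed arrays. For Psma1 and Psmd7 the other probe sets in that mean were all too dim to be tested. Probe sets with the suffix _x_at, whose probes also match other sequences, were above 0 between the contralateral and the normal newly transcribed array in 6 of 6 cases (median 0.90), and the 1074 tested probe sets of that suffix had a median of 0.80. The 43 proteasome probe sets ending in _at alone had a median of -0.02, and all 8737 of that kind had -0.11.

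**Figure D5:**
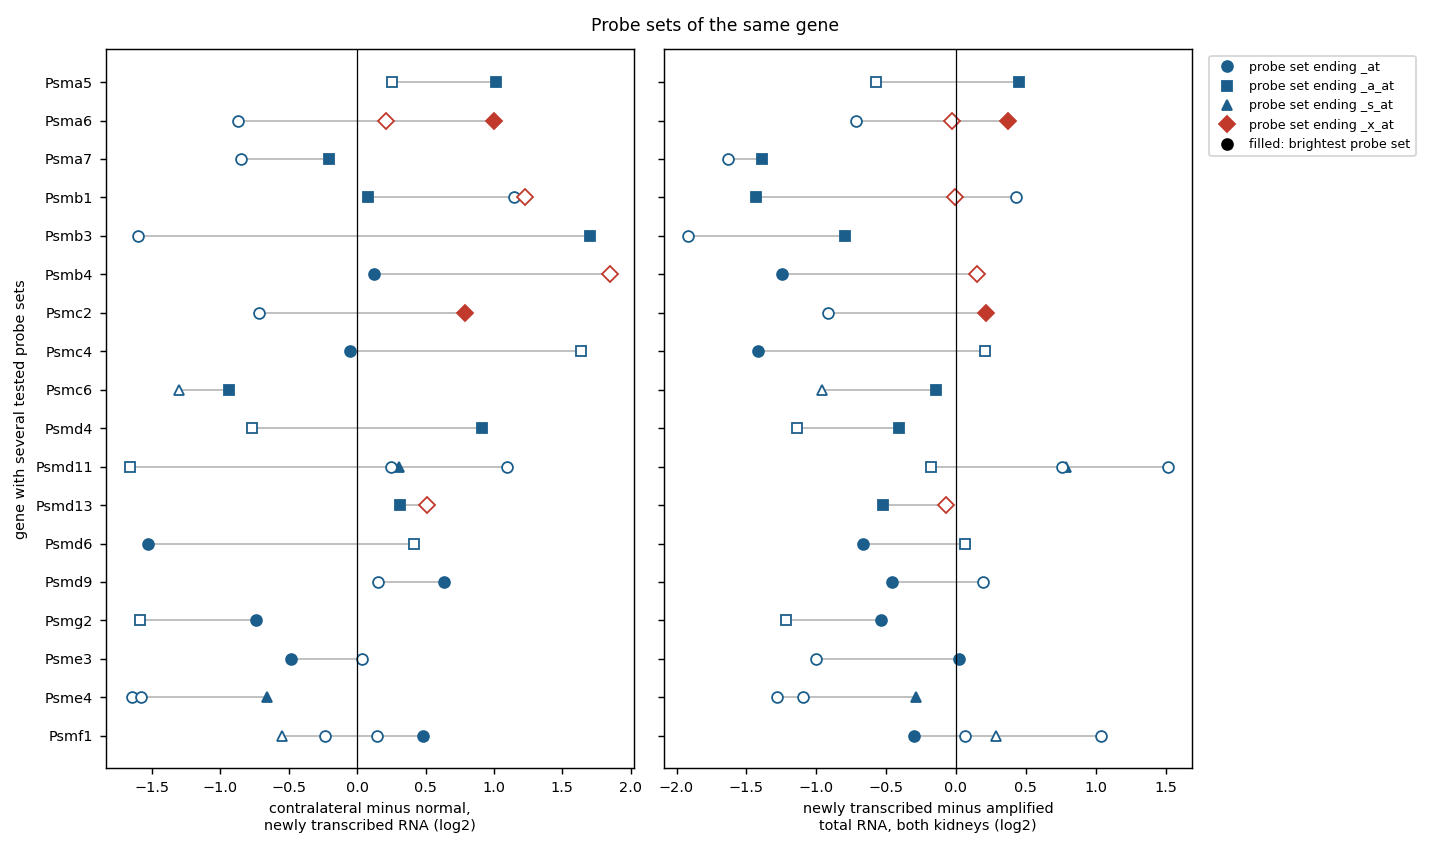
The 18 genes with several tested probe sets (y axis), with the difference between the contralateral and the normal newly transcribed array (left) and between newly transcribed and amplified total RNA over both kidneys (right), both in log2 on the x axis. Each symbol is a probe set, its shape gives the suffix, filled symbols are the brightest of the gene, and a line joins the probe sets of a gene. Lines cross 0 for 9 genes on the left and 11 on the right, and the probe sets of Psmb3 lie at 1.70 and -1.60 on the left.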

How the data were processed

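The authors deposited linear signal intensities, 1 for each probe set on each array. How they summarised or scaled them is not stated in the labels or headers. RNA was column-purified, linearly amplified and labelled with biotin through T7 transcription, per the labels' protocols. From the 22690 probe sets 64 control probe sets were removed. An offset of 11.8, the 25th percentile of the deposited values, was added before taking log2, and values were quantile normalized over the 10 arrays. Differences on this scale understate changes of dim genes. Probe sets with a mean above the 40th percentile were tested (13575, covering 8300 genes).

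Tests used limma 3.58.1 in R 4.3.3 with an intensity trend, all 10 arrays in each fit, Benjamini-Hochberg adjustment over all tested probe sets and a threshold of 0.05. Kidney comparisons within a preparation and their interaction came from a model of 6 group means. Comparisons over all preparations and between preparations came from an additive model. Precision is limited by how few arrays each group holds. The fit was checked on simulated data, in which all 10 arrays had the spread seen within the replicated groups. The check therefore does not cover the differences between the newly transcribed arrays.

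Named genes were the catalytic and immunoproteasome beta subunits, Psme, Psmf and Psmg genes, up to 6 rises and 6 falls per comparison (the smallest p up to 4 genes where fewer passed), and up to 4 per list. The genes and lists were chosen with earlier results of these data known. Symbols came from the platform annotation and promoters from RefSeq (GRCm38.p6). Alternatives covered the offset, the normalization, the filter, the arrays fitted, the probe set used, the variance model, a replicate block and leaving out each array.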

Additional observations from a re-analysis of the deposited data

Results flagged for a closer look

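In 1 case the contralateral effect differed between preparations by a test of the difference itself. The dimmer Psmb3 probe set, 1417052_at, had 7.44 and 7.65 in contralateral against 8.04 and 8.08 in normal amplified RNA, and 8.34 and 8.23 in contralateral against 8.10 and 7.92 in normal total RNA. The contralateral effect was -0.51 in amplified RNA, which passed in limma (adjusted p = 0.0371), and 0.27 in total RNA, which did not. Their difference was -0.79 ± 0.19 (SE, limma adjusted p = 0.044). The brighter Psmb3 probe set, 1460198_a_at, differed in the same direction without passing (-0.53 ± 0.20, adjusted p = 0.19). Among all 13575 tested probe sets 4.46% passed this test. The cause was not tested.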

How the results depend on the processing

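With 2 arrays or 1 array per group, small changes could not be detected. Total RNA and the comparison over all preparations gave 0 called proteasome genes in every alternative. In amplified total RNA the 2 calls between kidneys became 1 under median scaling, 0 without the intensity trend and 0 to 3 when 1 array was left out; 0 remained without either normal amplified array, and 1 without either normal total array. The interaction gave 0 to 1 when 1 array was left out. Between newly transcribed and amplified RNA, 23 calls became 16 to 34 when 1 array was left out. Between amplified and total RNA, 18 calls became 30 without the newly transcribed arrays and 13 to 30 when 1 array was left out, the highest without either newly transcribed array; with median scaling there were 23, 19 higher and 4 lower. Between the newly transcribed arrays the 14 differences of at least 2-fold became 9 with an offset of 50. Of 2120 values of named genes under an alternative, 2048 stayed on the same side of the threshold, 32 newly passed and 40 no longer passed. Of the 2048, 58 changed sign, and these were past the threshold in neither setting. The cause of these changes was not tested.

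A replicate block on the numbers of the titles left 15 calls between newly transcribed and amplified RNA, 14 of them lower. Same-numbered arrays of different groups correlated at -0.07 to 0.10 in their deviations. The highest values were those of total with amplified RNA of the same kidney group, 0.0998 for contralateral and 0.0971 for normal kidneys. With 2 arrays per group, these values cannot decide whether same-numbered arrays came from the same mouse.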
